A study of Mus musculus with 18 samples.

Results

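The epithelial adhesion and polarity genes followed here were Epcam, Cdh1, Cdh3, Ezr, Ocln, Marveld2, Tjp3, Esrp1, Grhl2 and Elf3. They were listed by symbol with earlier results of these data known, so the choice was not blind to the data. All 10 were found among the 30172 genes of every library. RNA-seq of whole ovaries from C57BL/6J female offspring (F1) gave 18 libraries in 6 groups of 3. The F1-HHcy mice were raised by mothers that ate a high-methionine diet (3% methionine), given from 4 weeks before mating through pregnancy and lactation according to the labels (the study's methods describe a longer feeding period), a diet used to raise homocysteine (maternal hyperhomocysteinemia, HHcy). The F1-Control mice were raised by mothers on the control diet, and both groups were collected on postnatal day 3 (Pd3), day 7 (Pd7) and day 21 (Pd21). The labels name no transgene or induced mutation. Whether a library held ovaries of 1 pup or of several was not given in the sources used here. Nor was the number of mothers or litters behind each group, although the diet was given to the mothers. The p-values below therefore measure the spread between libraries, which may not be that between mothers.

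Epithelial cells stick to each other through adherens junctions, which are built on cadherins, and seal the gap between them with tight junctions nearer the free surface. Ezrin ties the actin cytoskeleton to that free (apical) surface, and a small set of transcription and splicing regulators keeps the epithelial form of these genes switched on. In the ovary, cadherin junctions occur in the surface epithelium, between granulosa cells and at the oocyte, and the neighbouring oviduct is lined by secretory and multiciliated epithelium.

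Promoter sequence from RefSeq (assembly GRCm38.p6, the build named in the labels) was on hand for 6 of the 10 genes, in 9 windows of 250 bases that end at an annotated start. Cdh1, Cdh3, Esrp1 and Grhl2 had no entry in that table. The E-box CACCTG, a site read by the Snai and Zeb repressors, and the grainyhead motif AACCNGTT were counted, each on both strands, in each window. Of 32851 promoter windows of the same length, 17.2% held at least 1 such E-box and 2.06% held 2 or more. The 4 genes that were called lower in at least 1 diet comparison below and that had an entry are shown, because they differ in this motif. Each runs 5′ to 3′ on the gene's own strand and ends at the base before the start, and capitals mark the E-box on either strand.
Epcam promoter, chr17:87635729-87635978, plus strand: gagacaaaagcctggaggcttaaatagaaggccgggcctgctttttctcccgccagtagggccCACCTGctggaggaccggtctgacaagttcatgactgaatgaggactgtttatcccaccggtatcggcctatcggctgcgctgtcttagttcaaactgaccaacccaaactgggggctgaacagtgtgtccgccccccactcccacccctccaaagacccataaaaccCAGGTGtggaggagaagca
Elf3 promoter, chr1:135258473-135258722, minus strand: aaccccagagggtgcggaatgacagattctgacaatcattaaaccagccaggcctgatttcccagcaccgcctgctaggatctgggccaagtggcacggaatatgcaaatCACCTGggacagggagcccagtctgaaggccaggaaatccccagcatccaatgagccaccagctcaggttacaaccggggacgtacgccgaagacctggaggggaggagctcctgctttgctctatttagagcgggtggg
Ezr promoter, chr17:6782781-6783030, minus strand: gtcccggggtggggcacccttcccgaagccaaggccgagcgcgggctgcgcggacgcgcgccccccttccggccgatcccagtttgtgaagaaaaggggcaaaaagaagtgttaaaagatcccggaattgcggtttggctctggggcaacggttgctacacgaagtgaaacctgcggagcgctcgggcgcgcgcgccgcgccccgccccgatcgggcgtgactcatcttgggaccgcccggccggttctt
Marveld2 promoter, chr13:100616972-100617221, minus strand: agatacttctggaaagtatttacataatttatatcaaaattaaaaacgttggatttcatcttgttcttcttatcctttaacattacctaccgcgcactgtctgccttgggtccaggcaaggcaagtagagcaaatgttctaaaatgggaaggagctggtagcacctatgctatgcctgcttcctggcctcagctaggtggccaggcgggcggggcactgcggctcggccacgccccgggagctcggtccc

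The Epcam window held 2 E-boxes, which began 187 and 19 bases before the start, and the Elf3 window held 1, beginning 140 bases before it. The Ezr and Marveld2 windows held none of these letters. Ocln had 2 E-boxes in the window of its downstream start and none in the other, and Tjp3 had 1 in each of its 2 windows. The grainyhead motif was in none of the 9 windows and in 1.79% of all windows. CpG dinucleotides numbered 32 in the Ezr window, 8 in those of Epcam and Elf3 and 10 in the Marveld2 window shown, beside a median of 6 over all windows. These counts describe letters in a window and are not evidence of binding.

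Within the genome, Cdh3 (chr8:106510852-106556911) and Cdh1 (chr8:106603350-106670247) are neighbours whose ends lie 46438 bases apart. Ocln (chr13:100496504-100552718) and Marveld2 (chr13:100595957-100616971) lie 43238 bases apart. The remaining genes are on other chromosomes, except that Ezr and Epcam are both on chromosome 17 and far from each other.

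Values are FPKM, fragments divided by gene length and by the depth of the library, so levels may be compared between genes. Depth was 33630641 to 39399281 fragments counted on genes per library. Correlation between libraries of the same group was at least 0.975 over all genes. Every oocyte and granulosa marker on the lists used here was above 0 in at least 1 library of each group. The following libraries stood apart in ways that touched these genes. At Pd21, F1-Control replicate 2 had a summed level of oviduct and Müllerian duct markers of 76.6 FPKM, against 273 and 425 FPKM in replicates 1 and 3. At Pd3, F1-HHcy replicate 3 held the highest value of its group for 8 of the genes described below.

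A gene was tested where it reached 1 FPKM in at least 3 libraries of a comparison, which Tjp3 and Grhl2 did in none of the diet comparisons, so 8 of the 10 genes were tested. A gene is called higher or lower where limma gave an unadjusted p under 0.05 together with a change of more than 0.58, in size, of log2(FPKM + 1). The adjusted p (Benjamini-Hochberg over all genes tested) stands beside each call. With 3 libraries against 3, no gene taken alone can go below p = 0.1 in an exact permutation test. Since these are whole ovaries, fewer cells of a type and less RNA per cell cannot be told apart.

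The diet comparison found no called gene among the 8 at Pd3, 3 genes called lower at Pd7 (Epcam, Marveld2 and Ezr) and 4 called lower at Pd21 (Epcam, Cdh1, Ezr and Elf3), with none called higher on any day. Among all genes tested, 4.74% were called lower at Pd3, 7.35% at Pd7 and 5.06% at Pd21. The corresponding shares called higher were 5.0%, 9.06% and 0.0824%. Adjusted p was under 0.05 for 0, 3 and 1 of the 8 genes on the respective days, while 1.43%, 5.98% and 2.23% of all genes were lower by that rule. Single libraries moved this background: the 190 genes lower at Pd3 became as few as 0 (F1-Control replicate 1 left out) and as many as 1605 (F1-HHcy replicate 3 left out), the 795 at Pd7 from 256 (F1-HHcy replicate 1 left out) to 901 (F1-Control replicate 3 left out), and the 298 at Pd21 from 1 (F1-Control replicate 3 left out) to 184 (F1-HHcy replicate 3 left out), with 10 where F1-Control replicate 1 was left out. The median log2 fold change over the 8 genes was -0.22 at Pd3, -0.56 at Pd7 and -0.71 at Pd21, against -0.031, -0.0015 and -0.011 over all genes. All F1-HHcy libraries were below all F1-Control libraries for 2, 5 and 4 of the 8 genes, which was so for 16.1%, 19.5% and 8.61% of all genes tested.

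**Figure D1:**
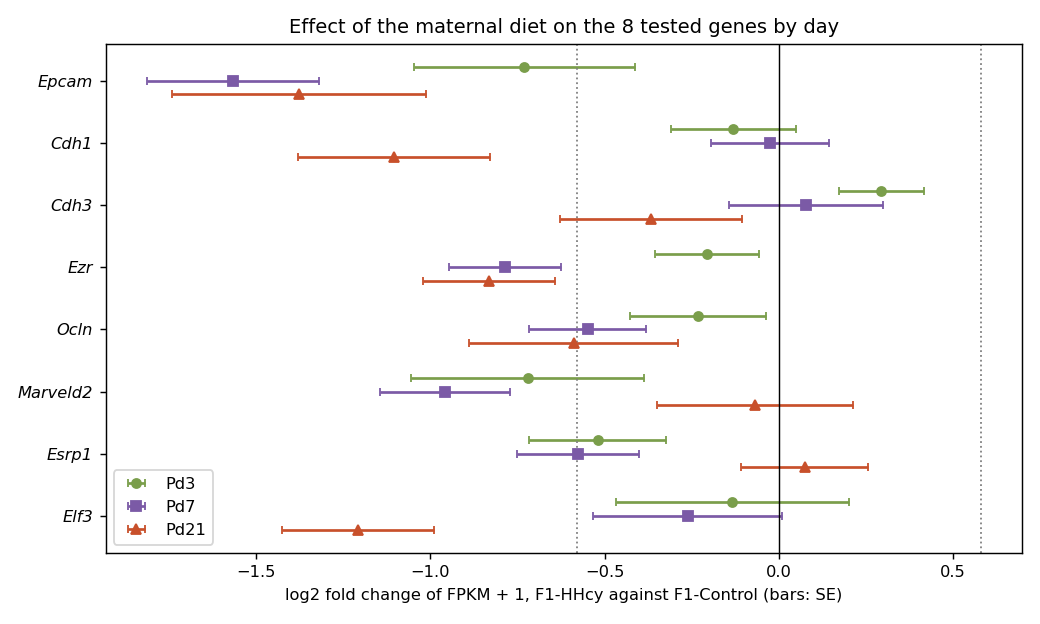
Log2 fold change of FPKM + 1, F1-HHcy against F1-Control, for the 8 tested genes (rows) at Pd3 (circles), Pd7 (squares) and Pd21 (triangles), with standard errors as bars and dotted lines at 0.58 in size. Epcam lies left of the line on all 3 days, Cdh1 and Elf3 only at Pd21, and Marveld2 and Esrp1 sit near 0 at Pd21 after negative values on the earlier days.

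Epcam encodes a homophilic adhesion molecule of epithelia that is also present on germ cells. At Pd3 it stood at 53.4, 67.8 and 48.1 FPKM in F1-Control and at 18.9, 41.4 and 46.7 FPKM in F1-HHcy. The groups did not overlap, although the highest F1-HHcy library came close to the lowest F1-Control one. The log2 fold change was -0.73 (SE 0.32, adjusted p = 0.229 in limma), which missed the call. Leaving out F1-HHcy replicate 2 gave -0.88 (adjusted p = 0.295) and leaving out replicate 3 gave -0.97 (adjusted p = 0.0476), both past the thresholds of a call.

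At Pd7, Epcam stood at 36.6, 45.1 and 22.8 FPKM in F1-Control and at 11.8, 12.6 and 8.13 FPKM in F1-HHcy. Every F1-HHcy library was far below every control library, and the mean fell from 34.8 ± 11.2 to 10.8 ± 2.37 FPKM (SD, n = 3). Its log2 fold change of -1.57 (SE 0.25, adjusted p = 0.00646 in limma) was the largest in size of the 8 genes on that day. At Pd21 the values were 33.7, 18.8 and 37.8 FPKM in F1-Control and 15.7, 5.76 and 12.5 FPKM in F1-HHcy. The groups again did not overlap, and the log2 fold change was -1.38 (SE 0.36, adjusted p = 0.154), a call by the unadjusted rule only.

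Cdh1 encodes E-cadherin, the classical cadherin of adherens junctions. On the first 2 days its level was low and did not separate the diets: 4.74, 5.99 and 4.36 FPKM in F1-Control against 3.54, 4.46 and 5.62 FPKM in F1-HHcy at Pd3. At Pd7 it was at 4.33, 3.80 and 3.99 FPKM in F1-Control and at 3.82, 3.19 and 4.99 FPKM in F1-HHcy. The log2 fold changes were -0.13 (SE 0.18, adjusted p = 0.704 in limma) and -0.03 (SE 0.17, adjusted p = 0.928).

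By Pd21 the control libraries held 18.9, 9.32 and 18.7 FPKM of Cdh1, while F1-HHcy held 7.05, 4.999 and 7.43 FPKM. The lowest control library, replicate 2, was still above all 3 F1-HHcy libraries. The log2 fold change was -1.10 (SE 0.27, adjusted p = 0.121 in limma). The diet effect at Pd21 differed from that at Pd7 by -1.08 (SE 0.33) with an adjusted p of 0.0773, the smallest of any of the 8 genes in the 3 tests of the diet-by-day difference. Without F1-Control Pd21 replicate 2 that difference was -1.39 (adjusted p = 0.00835), and the one between Pd21 and Pd3 was -1.29 (adjusted p = 0.0127, against 0.116 with all libraries). Over all genes, such differences were negative at an adjusted p under 0.05 for 0.308% (Pd7 against Pd3), 3.78% (Pd21 against Pd3) and 2.90% (Pd21 against Pd7) and positive for 0.103%, 0.815% and 0.986%. Pd3 and Pd7 libraries belonged to 1 batch and Pd21 libraries to another, so age and batch cannot be told apart in these differences.

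Cdh3 encodes P-cadherin, and it was the one gene of the 8 with higher values in F1-HHcy at Pd3. There it stood at 9.48, 11.8 and 9.97 FPKM in F1-Control and at 11.9, 13.2 and 13.8 FPKM in F1-HHcy, groups that just did not overlap. This was so in that direction for 11.8% of all genes, and the log2 fold change of 0.29 (SE 0.12, adjusted p = 0.211 in limma) was too small for a call. At Pd7 the log2 fold change was 0.08 (SE 0.22) and at Pd21 -0.37 (SE 0.26), with overlapping groups on both days. At Pd21 the F1-HHcy values of 10.8, 4.70 and 7.29 FPKM spread widely around control values of 8.18, 11.1 and 9.76 FPKM, and leaving out F1-HHcy replicate 1 turned the difference into a call (-0.63, SE 0.21, adjusted p = 0.299). Whether Cdh3 and its neighbour Cdh1 differed from each other in their diet effect at Pd21 was not tested.

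Ezr encodes ezrin and had the highest level of the 10 genes, with group means from 43.8 to 88.1 FPKM. At Pd3 the values of 85.6, 91.2 and 87.4 FPKM in F1-Control and 69.7, 95.8 and 66.2 FPKM in F1-HHcy overlapped (log2 fold change -0.21, SE 0.15, adjusted p = 0.455 in limma). At Pd7 it stood at 96.5, 77.7 and 76.3 FPKM in F1-Control and at 46.8, 55.5 and 41.9 FPKM in F1-HHcy. The groups were well apart, and the log2 fold change was -0.79 (SE 0.16, adjusted p = 0.0153). At Pd21 the control values were 79.2, 68.7 and 85.3 FPKM and the F1-HHcy values 47.8, 32.8 and 50.6 FPKM. These also did not overlap (-0.83 log2 units, SE 0.19, adjusted p = 0.0812).

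Ocln, Marveld2 and Tjp3 encode parts of the tight junction, namely the membrane proteins occludin and tricellulin, the latter at corners where cells meet, and a cytoplasmic scaffold of the zonula occludens family. Ocln was low throughout, with group means from 1.67 to 3.83 FPKM. At Pd7 it stood at 3.56, 2.96 and 2.30 FPKM in F1-Control and at 1.67, 1.51 and 1.85 FPKM in F1-HHcy. The groups did not overlap, and the log2 fold change of -0.55 (SE 0.17, adjusted p = 0.0598 in limma) was just short of the size needed for a call. Without F1-Control Pd7 replicate 3 it was -0.67 (adjusted p = 0.0354) and without F1-HHcy Pd7 replicate 3 it was -0.60 (adjusted p = 0.0916), both calls.

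At Pd21 Ocln had 4.49, 1.70 and 5.10 FPKM in F1-Control and 2.23, 2.02 and 1.72 FPKM in F1-HHcy. Control replicate 2 lay below all F1-HHcy libraries, whereas the other control libraries lay above them. The log2 fold change was -0.59 (SE 0.30, adjusted p = 0.929 in limma) with all libraries and -0.96 (SE 0.19, adjusted p = 0.0963) without control replicate 2. At Pd3 the groups overlapped, with 3.77, 4.23 and 3.48 FPKM in F1-Control, 2.12, 4.11 and 3.34 FPKM in F1-HHcy and a log2 fold change of -0.23 (SE 0.20).

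Marveld2 was called lower at Pd7 only. At Pd3 it stood at 17.3, 15.8 and 14.4 FPKM in F1-Control and at 5.53, 7.97 and 17.1 FPKM in F1-HHcy. Replicate 3 of F1-HHcy was level with the controls and the other libraries of that group were far below, so the log2 fold change of -0.72 (SE 0.33, adjusted p = 0.250 in limma) missed the call. Without that replicate it was -1.13 (SE 0.16, adjusted p = 0.00343). At Pd7 the values were 9.39, 10.98 and 7.38 FPKM in F1-Control and 3.85, 3.67 and 5.29 FPKM in F1-HHcy, which did not overlap. The log2 fold change was -0.96 (SE 0.19, adjusted p = 0.0122). At Pd21 the values of 4.74, 2.65 and 5.11 FPKM in F1-Control and 5.88, 2.88 and 3.16 FPKM in F1-HHcy were intermixed (log2 fold change -0.07, SE 0.28).

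Tjp3 was near the limit of the filter. It stood at 0.39, 0.508 and 0.578 FPKM in F1-Control and 0.115, 0.333 and 0.875 FPKM in F1-HHcy at Pd3, and at 0.326, 0.203 and 0.351 FPKM against 0.175, 0.0621 and 0.226 FPKM at Pd7. The groups overlapped on both days. At Pd21 the control libraries held 2.22, 0.637 and 2.58 FPKM, from 81 to 338 fragments, and the F1-HHcy libraries held 0.331, 0.0310 and 0.106 FPKM, from 4 to 40 fragments. All control libraries were above all F1-HHcy libraries. In a fit with no filter on low values the log2 fold change of FPKM + 1 was -1.21 (SE 0.32, adjusted p = 0.313), a scale that understates a change at such low values. With limma-voom on the recovered fragments and no filter it was -3.85 (SE 0.90, adjusted p = 0.0659).

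Esrp1 encodes an epithelial splicing regulator and was called on no day with all libraries. At Pd3 it stood at 43.6, 43.2 and 42.4 FPKM in F1-Control and at 22.5, 28.5 and 40.9 FPKM in F1-HHcy. The control libraries were nearly identical and all 3 F1-HHcy libraries were below them, replicate 3 by little. The log2 fold change was -0.52 (SE 0.20, adjusted p = 0.180 in limma), and -0.74 (adjusted p = 0.00566) without F1-HHcy replicate 3, a call. At Pd7 the values were 27.9, 29.2 and 25.8 FPKM in F1-Control and 16.1, 15.5 and 23.97 FPKM in F1-HHcy. These did not overlap, but the log2 fold change of -0.576 (SE 0.18, adjusted p = 0.0604) was just short of the size for a call. It reached -0.77 (adjusted p = 0.0304) without F1-HHcy replicate 3 and -0.62 (adjusted p = 0.0725) without F1-Control replicate 3. At Pd21 Esrp1 had 27.1, 20.6 and 25.1 FPKM in F1-Control and 29.5, 20.1 and 27.7 FPKM in F1-HHcy, with a log2 fold change of 0.07 (SE 0.18).

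Grhl2, a grainyhead transcription factor of epithelial genes, was at 0.404, 0.373 and 0.333 FPKM in F1-Control at Pd3 and at 0.0646, 0.0793 and 0.713 FPKM in F1-HHcy. Replicate 3 of F1-HHcy was again the high one. At Pd7 it stood at 0.136, 0.104 and 0.114 FPKM against 0.152, 0.0448 and 0.172 FPKM. At Pd21 the control libraries held 1.94, 0.625 and 2.58 FPKM (142 to 602 fragments) and the F1-HHcy libraries 0.237, 0.126 and 0.285 FPKM (29 to 67 fragments), with no overlap. With no filter on low values the log2 fold change of FPKM + 1 was -1.09 (SE 0.30, adjusted p = 0.350), and limma-voom on fragments gave -2.84 (SE 0.67, adjusted p = 0.0710).

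Elf3 encodes an ETS transcription factor of epithelia. At Pd3 it was at 1.96, 2.55 and 2.49 FPKM in F1-Control and at 1.10, 1.45 and 4.39 FPKM in F1-HHcy, and at Pd7 at 1.40, 1.10 and 1.33 FPKM against 0.528, 0.431 and 2.12 FPKM. On both days replicate 3 of F1-HHcy was above all controls and the other F1-HHcy libraries were, with overlap of the groups, at the low end (log2 fold changes -0.13 and -0.26). Without F1-HHcy Pd7 replicate 3 the difference at Pd7 was -0.62 (adjusted p = 0.0619 in limma), a call. At Pd21 the values were 11.5, 8.73 and 9.80 FPKM in F1-Control and 2.88, 3.28 and 5.41 FPKM in F1-HHcy. The groups were clearly apart, and the log2 fold change of -1.21 (SE 0.22, adjusted p = 0.0280) was the one of the 8 at Pd21 with an adjusted p under 0.05.

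**Figure D2:**
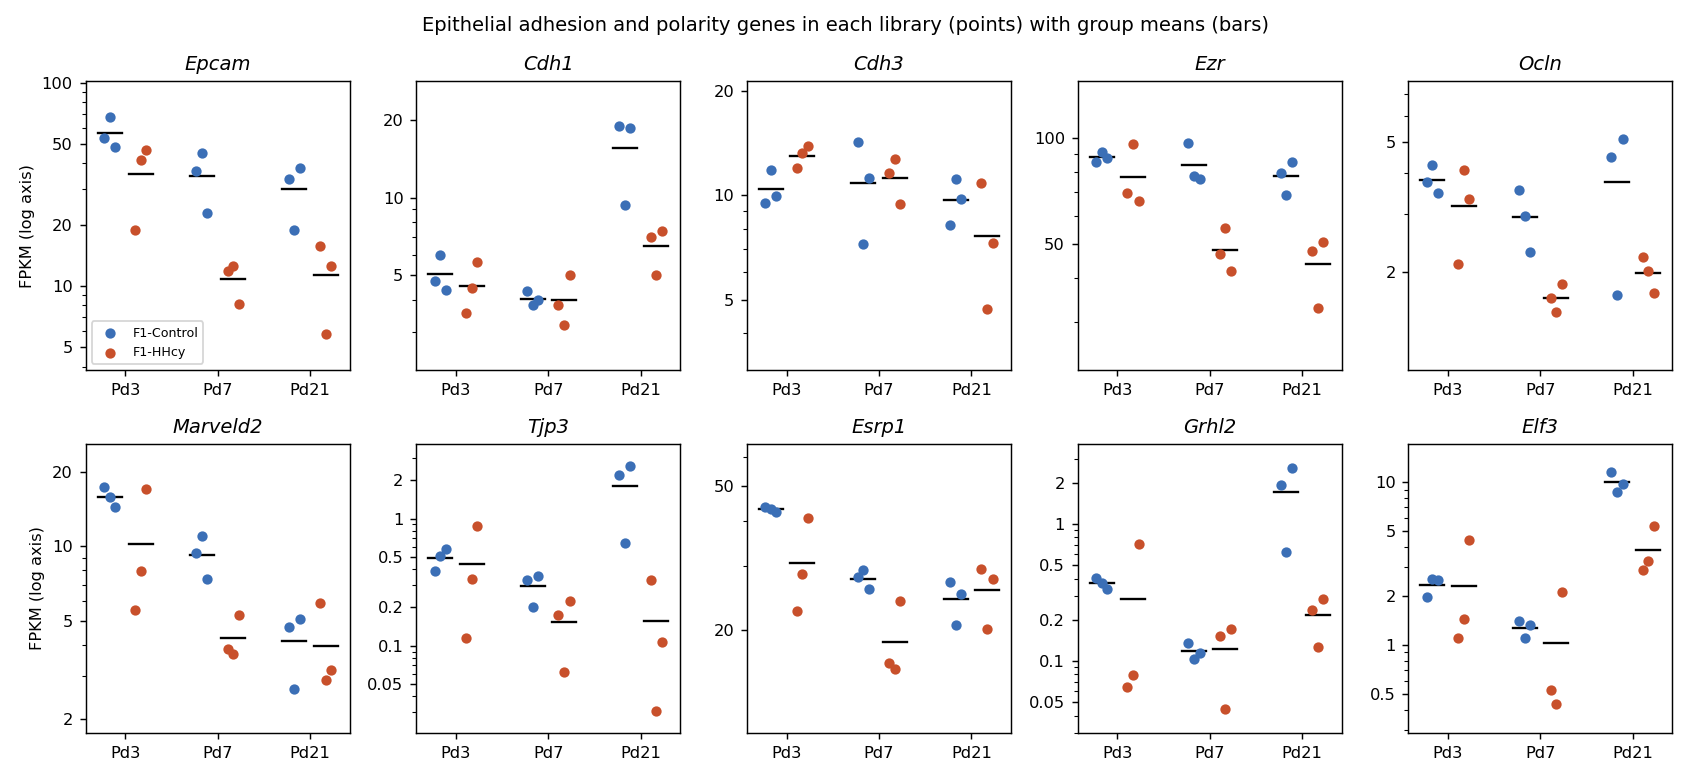
FPKM on a log axis of each of the 10 genes in the 18 libraries, with F1-Control in blue, F1-HHcy in orange and group means as black bars (n = 3). Cdh1, Tjp3, Grhl2 and Elf3 have their highest values in F1-Control at Pd21, Epcam and Ezr are lower in all F1-HHcy libraries at Pd7 and Pd21, and Esrp1 and Marveld2 have their highest group means in F1-Control at Pd3.

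Levels also moved with age. Order by group mean put F1-Control Pd3 highest for Epcam, Ezr, Ocln, Marveld2 and Esrp1, F1-Control Pd21 highest for Cdh1, Tjp3, Grhl2 and Elf3, and F1-HHcy Pd3 highest for Cdh3. For Ocln the neighbouring F1-Control means of 3.83 ± 0.38 FPKM at Pd3 and 3.76 ± 1.81 FPKM at Pd21 (SD, n = 3) lay within their spread. For Ezr in F1-Control (88.1 ± 2.90, 83.5 ± 11.3 and 77.7 ± 8.42 FPKM on the 3 days) the libraries of neighbouring days overlapped, while all Pd3 libraries lay just above all Pd21 libraries, a pair of days that was not tested. The day comparisons below share libraries with the diet comparisons and are not independent of them.

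From Pd3 to Pd7 in F1-Control, 3 of the 8 genes were called lower, beside 7.77% of all genes, and none higher, beside 7.0%. These were Marveld2 (log2 fold change -0.73, SE 0.16, adjusted p = 0.0190 in limma), Epcam (-0.72, SE 0.24, adjusted p = 0.0724) and Esrp1 (-0.62, SE 0.11, adjusted p = 0.00864). Epcam was no longer called without Pd3 replicate 2 (-0.58) or Pd7 replicate 3 (-0.45), and Esrp1 was just under the size for a call without the latter (-0.577). Elf3 was at -0.55 log2 units (SE 0.15, adjusted p = 0.0402 in limma), under the size for a call with all libraries and past it without Pd3 replicate 1 (-0.63) or Pd7 replicate 1 (-0.59).

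In F1-HHcy, 5 of the 8 were called lower from Pd3 to Pd7, beside 5.36% of all genes, and none higher, beside 5.73%. Their log2 fold changes were -1.56 (SE 0.33) for Epcam, -0.97 (SE 0.35) for Marveld2, -0.68 (SE 0.25) for Esrp1, -0.66 (SE 0.17) for Ezr and -0.62 (SE 0.20) for Ocln. Adjusted p in limma was from 0.0961 to 0.168 for these 5. No gene at all had an adjusted p under 0.05 in this comparison, in which 3119 of 13257 had an unadjusted p under 0.05 and limma-voom on fragments also gave 0. That 0 rested on the libraries and the fit: without F1-HHcy Pd3 replicate 1 there were 557 higher and 617 lower at an adjusted p under 0.05, with all 18 libraries in 1 fit 335 and 465, and with the replicate number as a block 0 and 5. Leaving out 1 library left between 2 and 5 of the genes called, 2 of them without Pd3 replicate 2 (Epcam and Marveld2) or without Pd7 replicate 2 (Epcam and Ezr).

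Between Pd7 and Pd21, where age and batch cannot be told apart, Elf3 and Cdh1 were called higher in both diet groups. In F1-Control the log2 fold changes were 2.27 (SE 0.17, adjusted p = 2.78e-04 in limma) for Elf3 and 1.66 (SE 0.25, adjusted p = 0.00346) for Cdh1, beside 14.7% of all genes called higher. In F1-HHcy they were 1.32 (SE 0.32, adjusted p = 0.0388) and 0.58 (SE 0.19, adjusted p = 0.0740), beside 8.88% of all genes, and none of the 8 was lower, beside 10.1% of all genes. That of Cdh1 in F1-HHcy lay at the size threshold and was no call without Pd7 replicate 1 (0.56), Pd7 replicate 2 (0.46), Pd21 replicate 1 (0.52) or Pd21 replicate 3 (0.49). Marveld2 was called lower in F1-Control (-1.01, SE 0.23, adjusted p = 0.0176), where 8.99% of all genes were.

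Which other cells moved with these genes was read from marker lists. No marker on any list was at 0 in all 3 libraries of a group. At Pd21, 4 of 4 tested oviduct and Müllerian duct markers were called lower in F1-HHcy (Ovgp1, Pax8, Sox17 and Krt7), and the summed level of the 6 listed genes was 76.6 to 425 FPKM in F1-Control and 9.86 to 25.3 FPKM in F1-HHcy. Ovgp1, the oviduct glycoprotein, stood at 216, 37.5 and 365 FPKM in F1-Control and at 2.10, 0.370 and 1.12 FPKM in F1-HHcy. Of the multiciliated markers, 5 of 6 tested were called lower, with sums of 136 to 345 FPKM against 82.8 to 111 FPKM. The one not called was Ccno, at 81.3 ± 14.9 FPKM in F1-Control and 89.8 ± 13.1 FPKM in F1-HHcy (SD, n = 3), which made up most of the F1-HHcy sums. Foxj1, the regulator of motile cilia, stood at 99.1, 20.4 and 49.7 FPKM against 0.371, 0.441 and 0.248 FPKM. Foxj1 and Pax8 (0.553 ± 0.181 FPKM in F1-HHcy) passed the filter at Pd21 through F1-Control alone, so they could not have been called higher.

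Of the ovarian surface epithelium and mesothelium markers, 5 of 7 were called lower at Pd21, with sums of 276 to 328 FPKM in F1-Control and 86.7 to 186 FPKM in F1-HHcy. None of 9 oocyte markers and none of 8 granulosa markers was called, and their sums overlapped between the diets. The part of oviduct, ciliated and surface epithelium in the lower Epcam, Cdh1, Ezr and Elf3 at Pd21 was not tested. A further fit left out F1-Control replicates 1 and 3, the libraries with the highest sums of oviduct markers. Its log2 fold changes were -1.04 (SE 0.35) for Elf3, -0.78 (SE 0.49) for Epcam, -0.48 (SE 0.29) for Cdh1 and -0.66 (SE 0.30) for Ezr. The control library left still had an oviduct sum of 76.6 FPKM, against 9.86 to 25.3 FPKM in F1-HHcy. The fit therefore did not take the difference in oviduct markers out of the comparison. That fit rested on 1 control library, taken to vary as the F1-HHcy libraries did, was chosen after the data were seen and gave no gene an adjusted p under 0.05, with 204 of 12745 genes at an unadjusted p under 0.05.

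**Figure D3:**
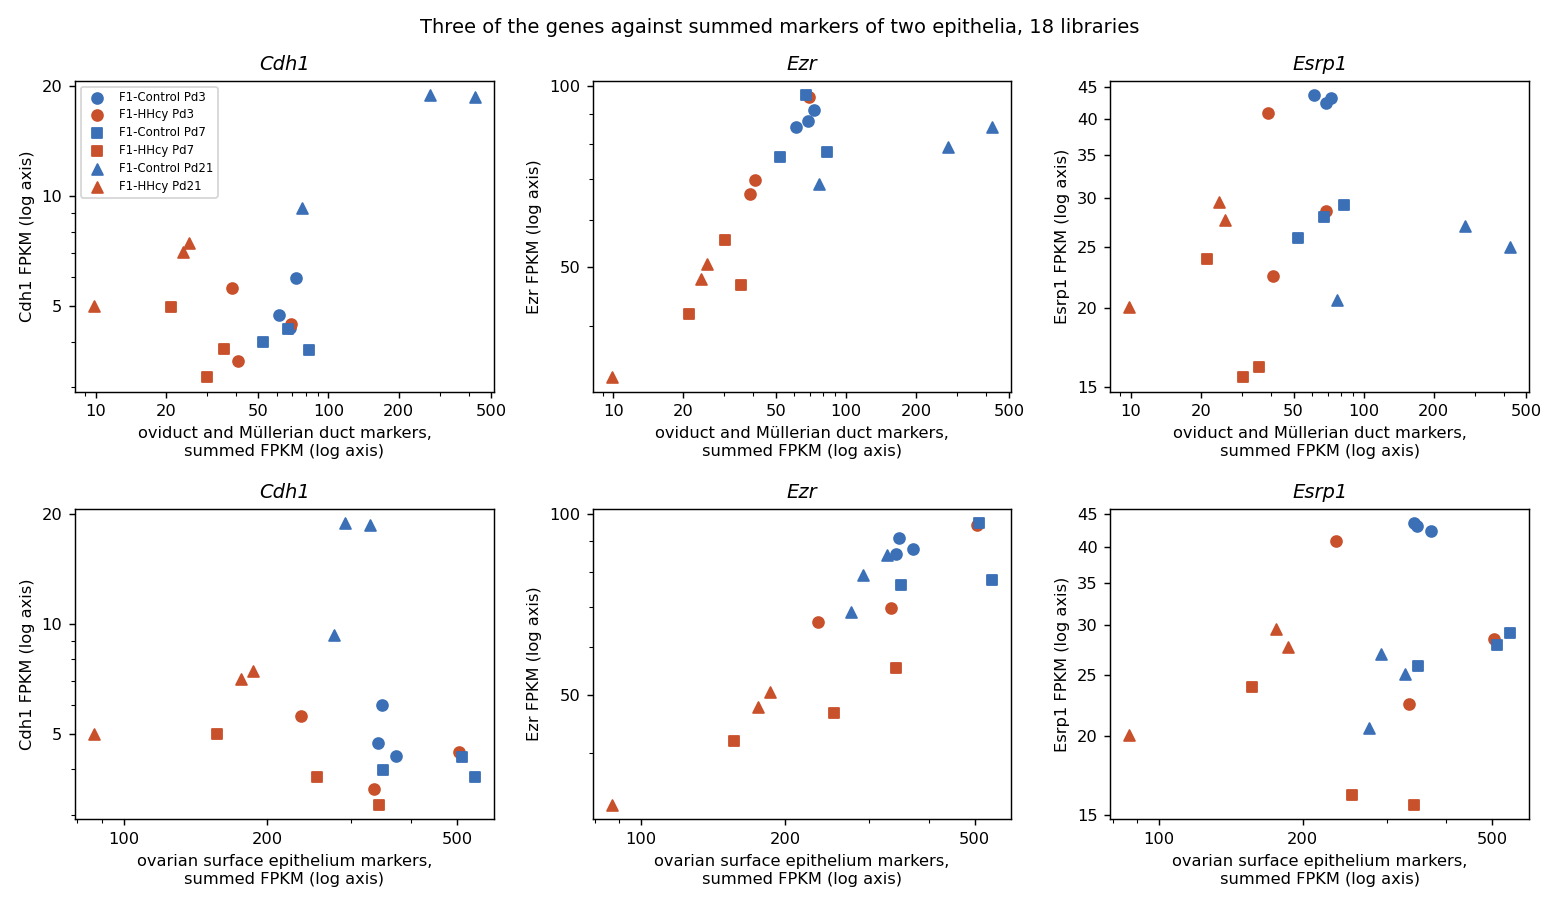
FPKM of Cdh1, Ezr and Esrp1 (columns) against the summed FPKM of oviduct and Müllerian duct markers (top row) and of ovarian surface epithelium and mesothelium markers (bottom row), on log axes, with 1 point per library, symbol by day and color by diet. F1-Control Pd21 replicates 1 and 3 lie far to the right in the top row. Their Ezr (79.2 and 85.3 FPKM) is below that of F1-Control at Pd3 (85.6 to 91.2 FPKM), so Ezr does not rise along that whole axis. Ezr rises with the surface epithelium sum, and Esrp1 shows no single trend with either sum.

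At Pd7 other cell types moved as well. The oviduct list had sums of 52.2 to 82.6 FPKM in F1-Control and 21.1 to 35.5 FPKM in F1-HHcy, with 2 of 4 tested markers called lower (Krt7 and Pax8) and 1 higher (Ovgp1). The call of Ovgp1 rested on widely spread F1-HHcy values, 5.11 ± 6.10 FPKM against 0.907 ± 0.117 FPKM in F1-Control (SD, n = 3, adjusted p = 0.146 in limma). Surface epithelium and mesothelium sums were 350 to 544 FPKM against 157 to 342 FPKM, with 3 of 7 called lower (Krt19, Lhx9 and Upk1b). Oocyte sums were 1278 to 2083 FPKM against 721 to 1174 FPKM, with 7 of 9 markers called lower and 1 higher (Bmp15). Granulosa sums were 246 to 497 FPKM against 492 to 823 FPKM, with 5 of 8 called higher, and all 6 theca markers were called higher, with sums of 216 to 449 FPKM against 1136 to 1195 FPKM. Erythroid sums were 924 to 5727 FPKM against 287 to 502 FPKM, with 5 of 5 called lower, and macrophage sums were 65.8 to 92.7 FPKM against 33.6 to 53.2 FPKM, with 1 of 4 called lower (Lyz2). The part of these in the lower Epcam, Marveld2 and Ezr was not tested.

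At Pd3 the oviduct sums were 61.2 to 72.6 FPKM in F1-Control and 38.7 to 69.2 FPKM in F1-HHcy, and those of the surface epithelium list were 342 to 372 FPKM against 235 to 505 FPKM, with no marker called on either list. Oocyte sums were 668 to 892 FPKM against 1119 to 1575 FPKM, with 4 of 9 markers called higher and 2 lower. Erythroid sums were 3887 to 11109 FPKM against 778 to 1107 FPKM, with 5 of 5 called lower. Granulosa sums were 206 to 218 FPKM against 269 to 489 FPKM, with 3 of 6 tested markers called higher (Inha, Amh and Hsd17b1). Stroma sums were 638 to 859 FPKM against 1115 to 1349 FPKM, with 5 of 6 called higher, and endothelium sums 25.7 to 34.99 FPKM against 49.98 to 59.5 FPKM, with 3 of 4 called higher. Their part in the values of the epithelial genes was not tested. With mitochondrial and hemoglobin genes left out of the scaling, Epcam was called lower at Pd3 and no other of the 8 was.

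Partner genes were counted on 9 lists, with the most abundant gene and the 3 with the smallest p at Pd21 open to naming and the others named where few were called. Partners of the tight junction were mostly uncalled: 1 of 10 was lower at Pd3 (Cgn), none at Pd7 and 1 at Pd21 (Jam3). Jam3, a junctional adhesion molecule, was at 26.1 ± 7.93 FPKM in F1-Control and 13.2 ± 1.17 FPKM in F1-HHcy at Pd21 (SD, n = 3), a log2 fold change of -0.89 (adjusted p = 0.117 in limma). F11r, the most abundant of them, had a log2 fold change of -0.28 (adjusted p = 1.00) at Pd21.

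Of 10 adherens junction partners none was called at Pd3 or Pd21, and at Pd7 Nectin1 was called higher and Nectin2 lower. Ctnnb1, which encodes beta-catenin and binds the tail of E-cadherin, was at 191 ± 32.0 FPKM in F1-Control and 184 ± 18.04 FPKM in F1-HHcy at Pd21, beside the lower Cdh1. Jup, plakoglobin, was at -0.49 log2 units (SE 0.23, adjusted p = 0.813 in limma) on that day. Among 12 genes of the polarity complexes, none was called at Pd3, Scrib was higher and Crb3 lower at Pd7, and Llgl2 was lower at Pd21 (5.47 ± 1.498 to 2.66 ± 0.65 FPKM, log2 fold change -0.81, adjusted p = 0.186).

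The list of ezrin relatives and scaffolds held 5 genes. Slc9a3r1, the scaffold that binds ezrin at the apical surface, fell from 35.6 ± 3.89 to 19.9 ± 4.65 FPKM at Pd7 (log2 fold change -0.83, SE 0.18, adjusted p = 0.0195 in limma). At Pd21 it was at 60.8, 41.5 and 45.7 FPKM in F1-Control and at 24.8, 14.3 and 26.2 FPKM in F1-HHcy, or -1.17 in log2 units (SE 0.25, adjusted p = 0.0553). Rdx, radixin, was the most abundant and was not called on any day, with log2 fold changes of 0.09, -0.02 and 0.24. Pdzk1 was called lower at Pd7 and Slc9a3r2 higher at Pd3.

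Simple epithelial keratins, the intermediate filaments of single-layered epithelia, had 2 of 4 called lower at Pd3 (Krt8 and Krt18) and 4 of 4 at Pd7 and at Pd21. Krt7 stands also on the oviduct list and Krt19 on the surface epithelium list, so the lists are not separate evidence. Krt18 stood at 107, 140 and 64.0 FPKM in F1-Control and at 35.4, 39.1 and 27.2 FPKM in F1-HHcy at Pd7, a log2 fold change of -1.53 (adjusted p = 0.00789 in limma). At Pd21 it was at 103, 54.6 and 82.3 FPKM against 35.8, 18.8 and 32.9 FPKM, with a log2 fold change of -1.43 (adjusted p = 0.0491). The groups did not overlap on either day.

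Of the other epithelial surface genes, 1 of 7 tested was called lower at Pd3, 1 of 4 at Pd7 (Spint2 both times) and 6 of 8 at Pd21. The genes that passed the filter differed between days, so these counts are not of the same genes. Cldn3, a claudin, was at 48.1, 14.9 and 45.5 FPKM in F1-Control at Pd21 and at 6.57, 3.08 and 3.13 FPKM in F1-HHcy (log2 fold change -2.72, adjusted p = 0.0160 in limma). St14, the membrane protease matriptase, and Cldn7 were at most 0.697 and 1.298 FPKM in the libraries of Pd3 and Pd7 and were at 4.8 ± 2.32 and 9.25 ± 5.64 FPKM in F1-Control at Pd21. In F1-HHcy at Pd21 they were at 0.372 ± 0.220 and 0.137 ± 0.0779 FPKM. St14 and Cldn7 thus passed the filter at Pd21 through F1-Control alone and could not have been called higher. Both are genes whose control values at Pd21, like those of Tjp3 and Grhl2, were lowest in replicate 2.

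Desmosome genes gave 1 lower of 6 at Pd3 (Pkp2), 1 higher at Pd7 (Dsp) and 2 lower at Pd21 (Dsp and Ppl). Among the other epithelial regulators, Grhl3 and Ovol1 were called lower at Pd3 and at Pd7, Ehf was called higher at Pd7, and Ehf and Klf5 were called lower at Pd21. Klf5 (0.663 ± 0.191 FPKM in F1-HHcy) passed the filter at Pd21 through F1-Control alone. Ehf, an ETS relative of Elf3, went from 1.08 ± 0.70 to 4.59 ± 2.09 FPKM at Pd7 (log2 fold change 1.41, SE 0.29, adjusted p = 0.0153 in limma). At Pd21 it went from 16.2 ± 5.17 to 9.12 ± 2.10 FPKM (-0.74, SE 0.25, adjusted p = 0.393). Of 7 regulators and markers of the mesenchymal state, 3 were called higher at Pd3 (Fn1, Snai1 and Zeb2), 3 higher at Pd7 (Fn1, Snai2 and Zeb2) and 1 lower at Pd21 (Fn1). A link between these regulators and the E-boxes described above was not tested. Epcam and Elf3 had such letters in their windows, as did Ocln and Tjp3. Ezr and Marveld2 had none, and Cdh1, Cdh3, Esrp1 and Grhl2 had no window to search.

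**Figure D4:**
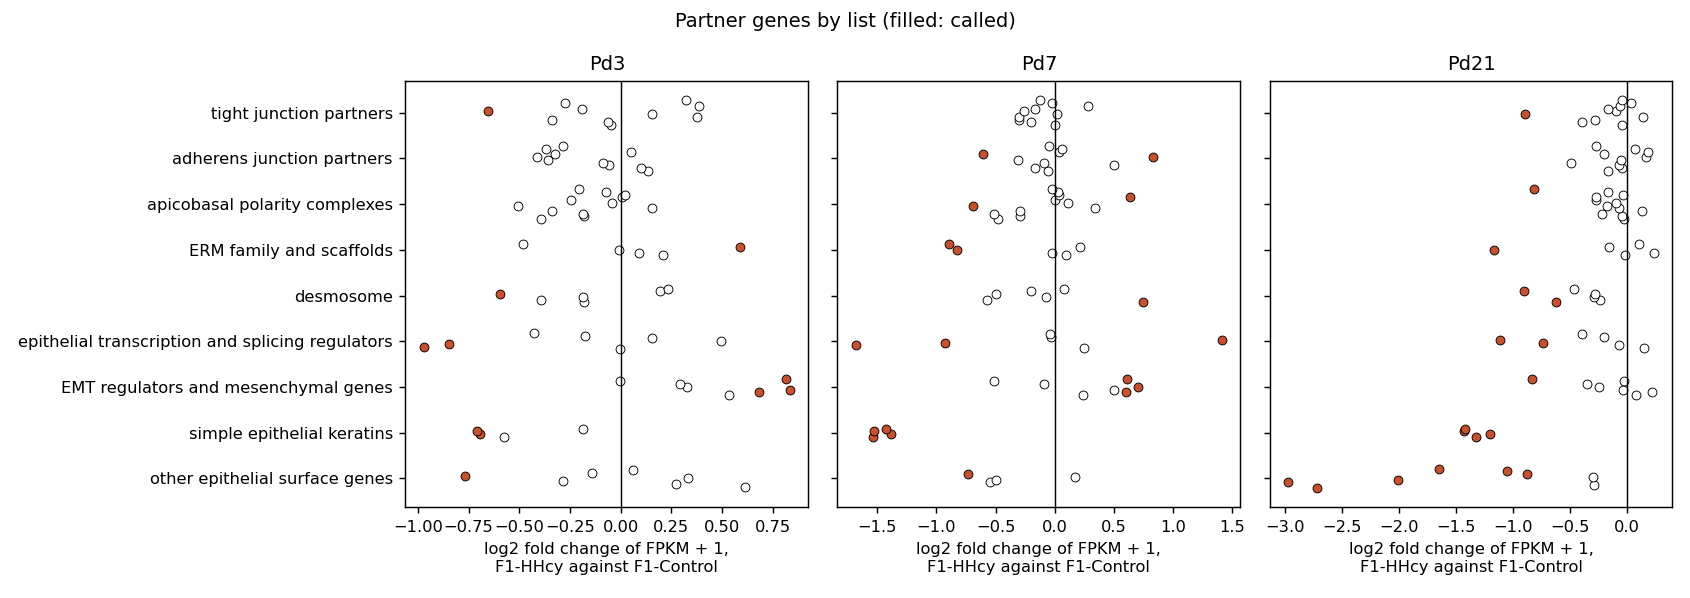
Log2 fold change of FPKM + 1, F1-HHcy against F1-Control, for each tested gene (points) of 9 partner lists (rows) at Pd3, Pd7 and Pd21, with called genes filled. The x axes differ in range between days. All 4 keratins are filled and negative at Pd7 and Pd21, and the junction and polarity lists are mostly open points near 0.

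How the 10 genes varied together was described with day-centred log2(FPKM + 1) over the 18 libraries, which share depth, batch within a day and the diet contrast, so no p is given. Of 45 pairs, 25 had a Pearson r above 0.5 and 2 were below 0, with a median of 0.54. The highest were Tjp3 with Grhl2 (0.97), Cdh1 with Tjp3 (0.95) and Cdh1 with Grhl2 (0.94), then Marveld2 with Esrp1 (0.93) and Epcam with Ezr (0.89). Cdh3 had an r of at most 0.37 with any other gene, and -0.13 with Esrp1. Its neighbour Cdh1 was at 0.31 with it, while the neighbours Ocln and Marveld2 were at 0.66.

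Against the summed markers, centred in the same way, Tjp3 (0.88), Ezr (0.87), Cdh1 (0.85) and Grhl2 (0.84) had the highest r with the oviduct list. At Pd3 and Pd7 most of that sum was Krt7, which stands also on the list of simple epithelial keratins. Its means were 60.6 and 61.6 FPKM in F1-Control and 42.3 and 20.4 FPKM in F1-HHcy on these days. At Pd21 the means of Ovgp1 and Krt7 were 206 and 36.9 FPKM in F1-Control and 1.19 and 15.3 FPKM in F1-HHcy. Each r was taken over all 18 libraries and not by day, and the part of single markers in it was not tested. Ezr (0.93) and Epcam (0.80) had the highest with the surface epithelium list. Marveld2 and Esrp1 were low with both (0.36 and 0.24 with the oviduct list, 0.27 and 0.18 with the surface list), and with granulosa sums they were at -0.79 and -0.66, where Epcam was at -0.81. No gene was above 0.27 with the oocyte sums. Those sums mix markers that moved in opposite directions: at Pd3 Bmp15, Gdf9, Zp2 and Zp3 were called higher, and Dazl and Sohlh1 lower. The most abundant gene in them was Zp2. A low r with the sum therefore does not speak for each oocyte marker, and single oocyte markers were not tested in this way.

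**Figure D5:**
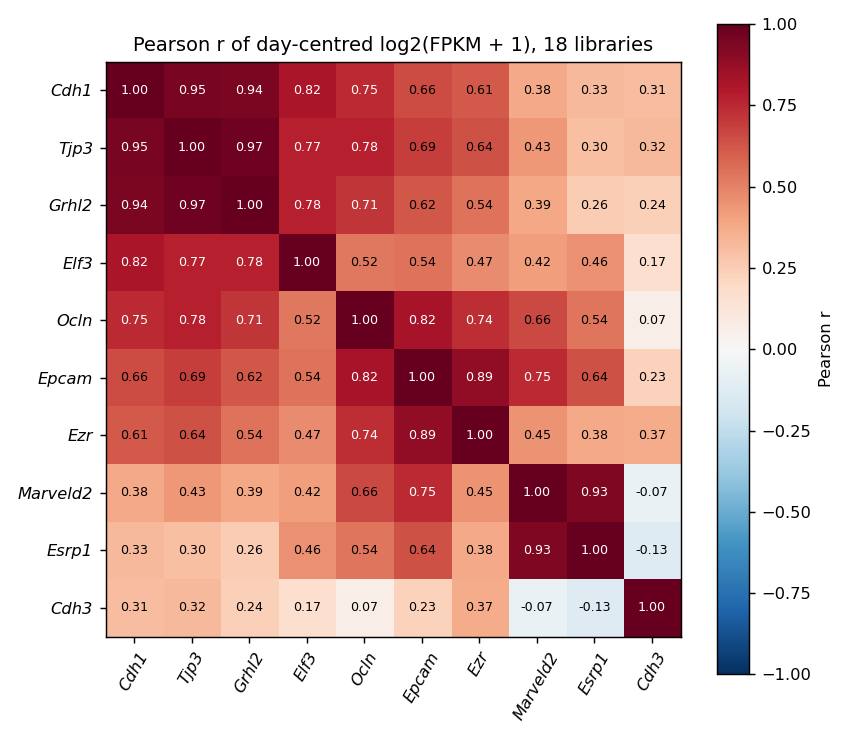
Pearson r between each pair of the 10 genes over 18 libraries, from day-centred log2(FPKM + 1), with red for positive and blue for negative values. A block of Cdh1, Tjp3 and Grhl2 (0.94 to 0.97) and the pair Marveld2 and Esrp1 (0.93) stand out, and Cdh3 is pale in every row.

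Outside the set, the genes whose day-centred values were most like the mean of the set were Ankrd6 (Pearson r 0.96 over the 18 libraries), Ripk4 (0.94) and Stpg1 (0.94). Naaa, Prkcz, Dnah9, Styxl1 and Rbm24 were also among the 10 most alike. Prkcz, an atypical protein kinase C of the Par polarity complex, stands on the polarity list and Dnah9 encodes an axonemal dynein. Ranking by Spearman's rho instead gave 10 genes of which 2 were the same, Ankrd6 and Ripk4.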

How the data were processed

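Whole-ovary RNA was sequenced in 18 stranded poly-A libraries, 3 for each of 6 diet and day groups taken from the labels. The authors deposited 1 value per gene and library, whose unit they did not name and which was read as FPKM, because the values are whole multiples of what 1 fragment is worth. Fragment counts were recovered from them for 27293 of 27294 genes above 0 in at least 3 libraries (a tolerance of 0.05 fragments), which gives the depth. The build was GRCm38/mm10. The submitters' processing notes name FastQC 0.11.9, Trimmomatic 0.39, STAR 2.7.9a, featureCounts 2.0.1 and DESeq2 1.36.0, with no roles given.

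From the deposited FPKM, log2(FPKM + 1) was tested with limma 3.58.1 (trend, R 4.3.3) on the 6 libraries of each comparison, for genes at 1 FPKM or more in at least 3 libraries. The call criterion (p under 0.05 unadjusted, and a change of over 0.58 in log2 units) uses the thresholds drawn in the study's volcano plots, here on log2(FPKM + 1) in limma, and adjusted p is over all genes tested. Diet-by-day differences came from 1 fit of the 18 libraries, called at an adjusted p under 0.05. The fitting code was tested on simulated data. The genes and lists were chosen with earlier results of these data known. Of each partner list, the most abundant gene and up to 3 with the smallest p at Pd21 were named with values. A few others were named after their values were seen, where a count was small. Alternatives were another pseudocount, no filter, other scalings, limma-voom on fragments, all libraries in 1 fit, an adjusted threshold, a replicate block and leaving out each library. Tables and figures were made in Python 3.11.15 with pandas 2.3.3, numpy 2.4.6 and matplotlib 3.10.9. Some of the genes most alike to the set are not reported here.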

Additional observations from a re-analysis of the deposited data

Results flagged for a closer look

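None of the 8 tested epithelial genes had a diet effect that differed between days at an adjusted p under 0.05. Some partner and marker genes did, by the diet-by-day term in limma. Of each partner, oviduct and multiciliated list, only the most abundant gene and up to 3 with the smallest p at Pd21 were looked at. That choice favours a larger effect at Pd21, so these genes cannot be compared with the 8 in this respect. St14 moreover reached 1 FPKM only in F1-Control at Pd21. Differences are in log2 units of FPKM + 1, and negative values mean a more negative diet effect at Pd21. Against Pd3 they were -3.33 for Cldn3 (adjusted p = 0.00138), -2.69 for Cldn7 (0.00316), -2.10 for St14 (0.00103), -1.05 for Jam3 (0.0109) and -1.64 for Fn1 (0.00419). Among oviduct and multiciliated markers they were -6.09 for Ovgp1 (7.90e-04), -2.22 for Pax8 (0.0194), -5.36 for Foxj1 (2.71e-05), -3.02 for Rsph1 (6.60e-04) and -3.09 for Tekt1 (5.67e-05).

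Against Pd7 the differences were -2.17 for Cldn3 (adjusted p = 0.0363 in limma), -2.75 for Cldn7 (0.00271), -2.14 for St14 (9.35e-04), -0.91 for Jam3 (0.0302), -1.44 for Fn1 (0.0119) and -2.15 for Ehf (0.00863). Those of the markers were -7.35 for Ovgp1 (1.44e-04), -4.82 for Foxj1 (8.54e-05), -2.69 for Rsph1 (0.00178) and -2.88 for Tekt1 (1.10e-04). Age and batch cannot be told apart in all 20 of these.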

How the results depend on the processing

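Leave-one-out fits aside, 153 counts of called genes under the alternatives were within 1.5 times the reported ones. Many of these were a 0 that stayed 0, as in the diet-by-day counts. Another 18 values were not within it, and these include the ranking of the genes most alike. Of single-gene values, 604 kept direction and side of the threshold, 25 became calls, 5 lost one and 10 changed sign. The cause was not tested. Genes called lower by diet at Pd3, reported as 0, were 2 with limma-voom on fragments, with or without a filter, 1 without mitochondrial and hemoglobin genes and 1 with all 18 libraries in 1 fit. At Pd7, 3 became 5 with a pseudocount of 0.1 and with limma-voom with or without a filter. Over all genes, limma-voom with the filter took lower calls from 629 to 820 at Pd3 and from 978 to 1212 at Pd7. The pseudocount of 0.1 gave 1217 at Pd7. At Pd21, 4 became 1 by adjusted p and 1 without F1-Control libraries 1 and 3 together, where Ocln was at 0.14 and Marveld2 at 0.40. The fit without those libraries and limma-voom without a filter were chosen after seeing the data. From Pd3 to Pd7 in F1-Control, 3 became 5 with limma-voom without a filter, and Cdh3 was at -0.021 without mitochondrial and hemoglobin genes. In F1-HHcy 5 became 0 by adjusted p. From Pd7 to Pd21, 2 higher in F1-Control became 4 with no filter and with limma-voom without a filter, and in F1-HHcy 2 higher became 1 by adjusted p while 0 lower became 1 with limma-voom with or without a filter.

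Other sign changes were in values near 0: Grhl2 at Pd7 was -0.13 with limma-voom without a filter, Epcam from Pd7 to Pd21 in F1-HHcy was 0.010 with median-ratio scaling, and the difference of Pd21 and Pd7 diet effects was 0.028 for Ezr with that scaling and for Ocln 0.012 with it, 0.0096 with a pseudocount of 0.1, 0.0042 with limma-voom and 0.0062 with limma-voom without a filter. Ranking by Spearman kept 2 of the 10 most alike genes.

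Leaving out 1 library gave 0 to 3 genes called lower at Pd3, 3 to 6 at Pd7, 4 to 5 at Pd21, 1 to 4 from Pd3 to Pd7 in F1-Control and 2 to 5 in F1-HHcy, and from Pd7 to Pd21 in F1-HHcy 0 to 1 lower and 1 to 3 higher. For the diet-by-day differences of Pd21 against Pd3 and against Pd7 it gave 0 to 1. Over all genes, such fits called 424 to 1028 lower at Pd3 (629 with all libraries), 672 to 1234 at Pd7 (978) and 359 to 903 at Pd21 (675). From Pd3 to Pd7 they called 858 to 1604 lower in F1-Control (1036) and 491 to 1084 in F1-HHcy (711). From Pd7 to Pd21 in F1-HHcy they called 917 to 2035 lower (1344) and 804 to 1675 higher (1177). Values that changed sign ranged at Pd3 from -0.27 to 0.0048 for Cdh1 and -0.55 to 0.13 for Elf3; at Pd7 from -0.16 to 0.093 for Cdh1 and -0.16 to 0.28 for Cdh3; at Pd21 from -0.33 to 0.087 for Marveld2 and -0.033 to 0.24 for Esrp1. From Pd3 to Pd7 in F1-Control Cdh3 ranged from -0.19 to 0.26. From Pd7 to Pd21 in F1-Control the ranges were -0.48 to 0.087 (Epcam), -0.36 to 0.086 (Cdh3), -0.17 to 0.0083 (Ezr) and -0.020 to 0.57 (Ocln), and in F1-HHcy -0.29 to 0.36 (Epcam), -0.26 to 0.044 (Ezr) and -0.38 to 0.035 (Marveld2). Differences of Pd7 and Pd3 diet effects ranged from -0.034 to 0.24 (Cdh1), -0.56 to 0.18 (Marveld2), -0.25 to 0.17 (Esrp1) and -0.49 to 0.29 (Elf3), and those of Pd21 and Pd7 from -0.11 to 0.57 (Epcam), -0.16 to 0.14 (Ezr) and -0.41 to 0.18 (Ocln).

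Replicate numbers did not pair the libraries: deviations of libraries with the same number correlated between -0.31 and 0.09. With the replicate block, 1 gene (Epcam) was called lower at Pd3 in place of 0, 6 in place of 5 from Pd3 to Pd7 in F1-HHcy, and the other counts were as reported. Depth limits Tjp3 and Grhl2 most, with 4 to 40 and 29 to 67 fragments in F1-HHcy at Pd21.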
